A study of Mus musculus with 22 samples.

Results

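Euploid pre-mid-pachytene spermatocytes were compared with euploid liver, that is, male germ cells in the first meiotic prophase with a somatic organ of the same genotype. Both tissues came from adult t121/D17 males aged 2 months, the euploid siblings of Ts43H trisomic males, and each was measured on 3 Affymetrix arrays. The spermatocytes were obtained by fluorescence-activated sorting of dissociated testicular tubules, and the liver RNA came from the organ without a sort named in the labels. Between 20 and 30 ng of total RNA per array was amplified in the 2-cycle Affymetrix labelling. The genes described here are those whose mean log2 intensity reached 4 in either tissue, which were 10054 of the 15780 named genes on the array. At that bound, Atp6v1g2 and Galns were just inside, with means of 3.02 and 3.76 in spermatocytes, against 4.0004 and 4.0011 in liver. Kdm4b and Fxyd5 were just outside, with means of 3.40 and 3.999 in spermatocytes, against 3.99 and 3.62 in liver. The other arrays of the 22 held the trisomic counterparts of both tissues and the later germ cell groups, mid-late-pachytene spermatocytes and spermatids, of both genotypes. Whether each array had an animal of its own is not in the labels, so every p-value below measures the spread between these arrays, which may be technical.

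In the pachytene stage the homologous chromosomes are held together by the synaptonemal complex while programmed DNA breaks are repaired as crossovers or non-crossovers. The X and Y chromosomes, which largely lack a partner, are packed into the sex body and transcriptionally silenced, and the cell meanwhile stores transcripts for the spermatid stages that follow. Hepatocytes, which make up most of the liver mass, secrete plasma proteins, dispose of ammonia, make bile acids and modify foreign compounds, under a small set of transcription factors such as HNF4A and the FOXA proteins.

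Of the 10054 genes, 4040 were higher in spermatocytes and 3502 were lower, each by at least 2-fold with a limma adjusted p under 0.05. These calls were 40.2% and 34.8% of the genes described, and over all 15780 named genes the same rule called 26.1% higher and 23.1% lower. Both directions together were 75% of the genes described and 49.3% of all named genes, and the remaining 2512 genes were not called. Genes at 4 or above in only one tissue gave 1860 of the higher calls and 1580 of the lower ones, and the other calls were made among 6479 genes measured above that bound in both tissues. The median log2 difference, spermatocytes minus liver, was 0.26 over the 10054 genes and 0.03 over all named genes. The 3 arrays of a tissue did not overlap those of the other tissue in 8765 of the 10054 genes, or 87.2%. That count was made only among genes selected on these same arrays, and no share over all named genes stands beside it. In bulk RNA of this kind, fewer cells of a type and less RNA per cell cannot be told apart, and the log2 values carry no unit that compares the abundance of different genes.

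The arrays of each tissue were close to each other. Pearson's r across genes was between 0.9923 and 0.9945 among spermatocyte arrays, between 0.9901 and 0.9915 among liver arrays, and between 0.5368 and 0.5511 across tissues. The array medians were 4.63 to 4.69 in spermatocytes and 4.23 to 4.29 in liver. The share of named genes at 8 or above was 31.05% to 32.3% in spermatocytes and 30.2% to 30.8% in liver. Values below 3 were treated as the background range; the lower quartile of all probe sets was 2.35 to 2.38 on the spermatocyte arrays and 2.35 to 2.39 on the liver arrays. Where 1 tissue was in that range, a difference shows the gap to the background and was not ranked against other genes.

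Markers of later and earlier germ cell stages were read first, to check the sorted cells against their label. Prm1, a protamine that packs sperm DNA, was at 15.82, 15.95 and 16.08 on the spermatocyte arrays, against 7.09, 2.81 and 2.89 on the liver arrays, with means of 12.96 in mid-late spermatocytes (n = 2) and 16.13 in spermatids (n = 3). Tnp2, a transition protein, was at 13.86, 14.55 and 14.11 on the spermatocyte arrays, against 2.55, 2.44 and 2.45 on the liver arrays, with means of 6.09 and 13.16 in those later groups. The protamine and transition protein messages are known from round and elongating spermatids, which come after pachytene. Over the 8 spermatid markers on the array, the median was 13.83 to 14.25 on the pre-mid arrays, 9.86 to 11.12 on the mid-late arrays and 14.41 to 14.66 on the spermatid arrays, and every pre-mid array was above both mid-late arrays for 8 of the 8. The sorted pre-mid population thus carried spermatid messages that its label does not name, on all 3 arrays, so no array could be left out for it. For all 5 early prophase markers, too, every pre-mid array was above both mid-late arrays, with list medians of 12.83 to 13.53 on the pre-mid arrays and 8.83 to 9.52 on the mid-late arrays. For 7 of 7 pachytene markers every pre-mid array was below both mid-late arrays. On the liver side, Prm1, Prm2 and Ldhc, all of them germ cell genes, had their highest liver value on liver replicate 1.

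Genes of the meiotic chromosome axis rose together in spermatocytes. All 11 of the axis genes on the array, of 15 listed, were called higher, with a median log2 difference of 10.30, where 26.1% of all named genes were called higher. Differences are given in log2 units, spermatocytes minus liver, ± the standard error of the limma fit. That error draws on all 8 groups. Selenop, for one, had an SD of 0.05 in spermatocytes and 0.10 in liver (n = 3 each). Its SD was 1.52 in spermatids (n = 3), and its standard error was 0.58. Sycp1, the transverse filament of the synaptonemal complex, was at 13.68, 14.14 and 13.13 on the spermatocyte arrays, against 2.84, 2.65 and 2.68 on the liver arrays, a difference of 10.93 ± 0.21 with a limma adjusted p of 4.53e-17. Sycp2, a lateral element protein, was at 15.08, 15.29 and 15.22 on the spermatocyte arrays, against 3.13, 3.08 and 3.07 on the liver arrays, a difference of 12.11 ± 0.11. For both genes every liver array was at or close to the background range and every spermatocyte array was far above it. Sycp3, the other lateral element protein, was at 15.61, 15.83 and 15.74 on the spermatocyte arrays, against 6.05, 6.09 and 5.95 on the liver arrays, a difference of 9.70 ± 0.12, so its liver arrays stood together above the background. The central element genes Syce1, Syce2 and Syce3 differed by 10.40 ± 0.06, 11.05 ± 0.48 and 10.30 ± 0.17. Syce2 had the widest liver spread of these 3, with 3.24, 4.84 and 2.37 on the liver arrays, all below its spermatocyte arrays.

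The meiotic cohesins went with them. Stag3, a cohesin subunit of meiotic cells, was at 12.46, 13.08 and 12.35 on the spermatocyte arrays, against 2.24, 2.13 and 2.27 on the liver arrays, and Smc1b, the meiotic SMC1 subunit, at 12.59, 12.85 and 12.71 on the spermatocyte arrays, against 2.46, 2.39 and 2.43 on the liver arrays. Their differences were 10.42 ± 0.15 and 10.29 ± 0.12, with limma adjusted p of 1.12e-18 and 9.01e-20. The liver arrays of both lay below 3 and close to each other, and no spermatocyte array came near them.

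All 22 genes of recombination and telomere attachment on the array, of 32 listed, also rose, with a median log2 difference of 5.68. Spo11, which cuts the DNA to start recombination, was at 11.31, 11.64 and 10.67 on the spermatocyte arrays, against 2.46, 2.23 and 2.24 on the liver arrays, a difference of 8.90 ± 0.20 (limma adjusted p 4.00e-16). Dmc1, the meiotic strand exchange recombinase, was at 10.20, 10.57 and 10.05 on the spermatocyte arrays, against 2.94, 2.80 and 2.77 on the liver arrays, a difference of 7.43 ± 0.28. Msh4, which stabilises crossover intermediates, differed by 7.90 ± 0.18, and Mei1, needed for break formation, by 5.22 ± 0.73. The spermatocyte arrays of these 4 genes stood well clear of the liver arrays. Msh5, the partner of Msh4, was at 3.63, 4.60 and 4.37 on the spermatocyte arrays, against 2.80, 2.72 and 2.82 on the liver arrays, a difference of 1.42 ± 0.19, with low values on the spermatocyte arrays as well. Mlh3, the crossover endonuclease subunit, was at 8.61, 9.03 and 8.42 on the spermatocyte arrays, against 7.52, 7.39 and 7.67 on the liver arrays; its difference of 1.16 ± 0.25 missed the 2-fold rule without spermatocyte replicate 2, at 0.988, and with each array centred on its autosomal median, at 0.778. Dmc1 averaged 3.03 in the mid-late cells (n = 2) and 3.496 in spermatids (n = 3), so among these germ cell groups its high values were on the pre-mid arrays.

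**Figure D1:**
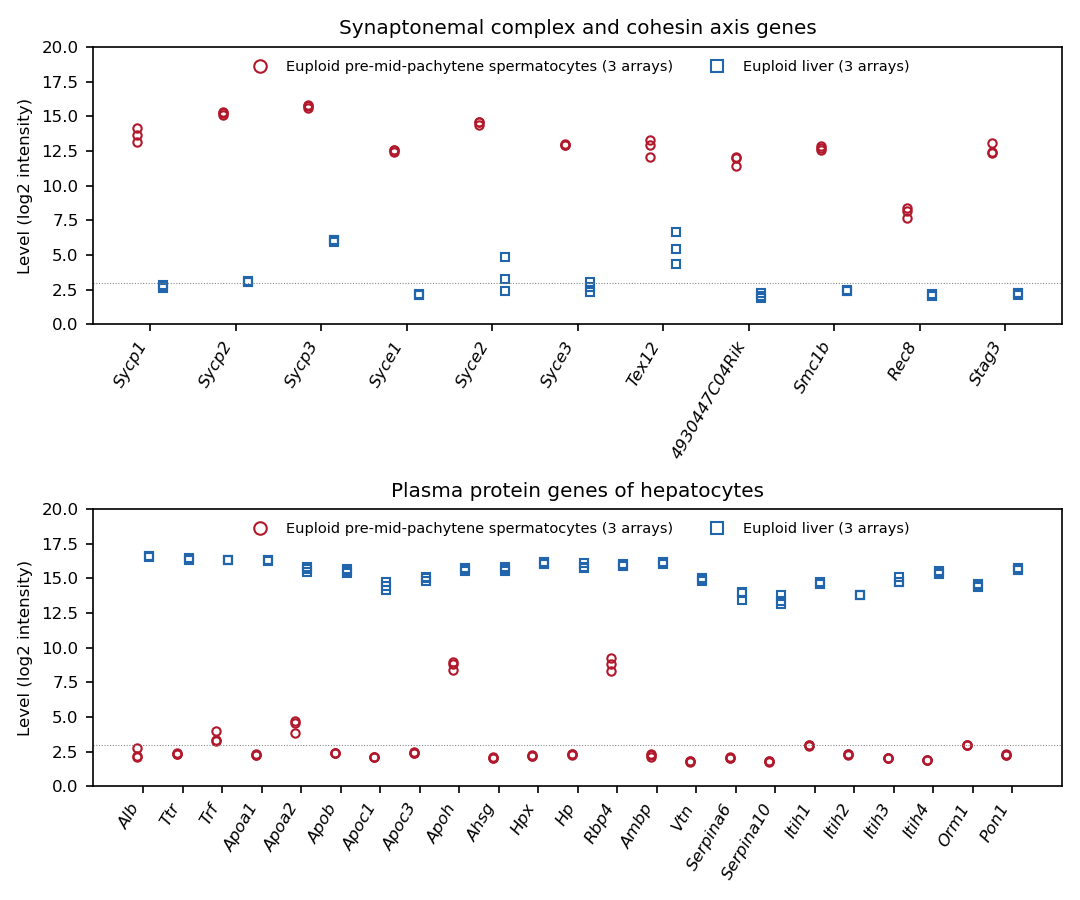
Log2 intensity on each of the 6 arrays for the 11 axis genes (upper panel) and the 23 plasma protein genes (lower panel), with a symbol per array, spermatocytes left of liver, and the dotted line at the background bound of 3. The tissues do not overlap for any gene shown; the liver arrays of Syce2 and Tex12 are spread, and Apoh and Rbp4 stand above 8 on the spermatocyte arrays.

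Genes that guard the germ line against transposons rose in 16 of the 18 piRNA pathway members on the array, with a median log2 difference of 8.12. Piwil1, the pachytene PIWI protein, was at 11.42, 11.55 and 12.60 on the spermatocyte arrays, against 2.61, 2.52 and 2.53 on the liver arrays, and Piwil2, which loads piRNAs from earlier stages on, at 13.90, 14.36 and 13.97 on the spermatocyte arrays, against 2.73, 2.78 and 2.77 on the liver arrays. Mael, a nuage protein, was at 14.90, 15.36 and 14.93 on the spermatocyte arrays, against 2.82, 2.54 and 2.61 on the liver arrays. The PIWI genes and Mael were below 3 on all 3 liver arrays, with differences of 9.30 ± 0.35, 11.31 ± 0.18 and 12.41 ± 0.10. The helicase Mov10l1 and the tudor protein Tdrd5 differed by 11.31 ± 0.10 and 5.95 ± 0.34. Tdrd7, also a tudor protein, differed by 2.25 ± 0.15, and its liver arrays were themselves high, at 10.15, 10.74 and 10.52. The genes not called were Tdrd1, at 3.75, 3.42 and 2.85 on the spermatocyte arrays, against 2.50, 2.57 and 2.58 on the liver arrays, and Henmt1, the piRNA methyltransferase, at 2.29, 2.86 and 2.74 on the spermatocyte arrays, against 2.14, 2.11 and 2.12 on the liver arrays. Both were near the background on these spermatocyte arrays and reached means of 8.65 and 9.80 in mid-late-pachytene spermatocytes.

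Of 16 transcription factors of germ cells on the array, 13 rose, 1 fell and 2 were not called. Tcfl5, a basic helix-loop-helix factor of spermatocytes, was at 14.92, 14.99 and 14.84 on the spermatocyte arrays, against 2.66, 1.98 and 1.99 on the liver arrays, a difference of 12.71 ± 0.14. Rfx2, a regulator of spermatid genes, was at 8.69, 9.42 and 8.33 on the spermatocyte arrays, against 2.29, 2.25 and 2.26 on the liver arrays, a difference of 6.55 ± 0.22. Mybl1, the A-MYB factor of pachytene cells, was at 4.44, 4.13 and 3.97 on the spermatocyte arrays, against 2.94, 2.80 and 2.85 on the liver arrays, a difference of 1.31 ± 0.31 (limma adjusted p 0.0015) that was 0.934, under the bound, when each array was centred on its autosomal median. Rfx3, Taf4b and the X-linked Taf7l differed by 4.63 ± 0.38, 6.66 ± 0.18 and 8.53 ± 0.46. Tcfl5, Rfx2 and Mybl1 had all liver arrays below 3 and all spermatocyte arrays above them. The gene that fell was Crem, a cAMP-responsive factor with a testis activator form and repressor forms in somatic cells. It was at 7.96, 7.83 and 8.24 on the spermatocyte arrays, against 9.73, 9.67 and 10.08 on the liver arrays, a difference of -1.82 ± 0.20 (limma adjusted p 4.62e-07).

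Among germ cell RNA-binding proteins, 11 of 14 on the array rose, with a median log2 difference of 6.86. Dazl, which promotes translation in germ cells, was at 14.65, 14.69 and 14.50 on the spermatocyte arrays, against 2.03, 2.17 and 1.89 on the liver arrays, a difference of 12.58 ± 0.19. Ybx2, which stores messenger RNA, differed by 9.88 ± 0.10, and Boll, a relative of Dazl, by 2.56 ± 0.32. Ythdc2, a helicase needed for meiotic entry, was at 12.82, 13.19 and 12.35 on the spermatocyte arrays, against 7.74, 8.07 and 7.52 on the liver arrays, so it was measured above background in both tissues and differed by 5.01 ± 0.23. Rbm44 and Adad1 differed by 8.47 ± 0.13 and 10.82 ± 0.10.

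Of the 19 histone and chromatin genes of germ cells on the array, 15 rose and none fell. Of the 15, Prm1, Prm2, Prm3, Tnp1, Tnp2 and H1f7 are messages of spermatids, and their part, beside the spermatid markers given above, was not tested. Over the 19 genes, every pre-mid array was above both mid-late arrays for 12 and below both for 7. Brdt, a testis bromodomain protein, was at 11.88, 12.30 and 11.90 on the spermatocyte arrays, against 3.23, 2.73 and 3.01 on the liver arrays, a difference of 9.04 ± 0.17, and the SUV39H2 methyltransferase gene Suv39h2 differed by 4.02 ± 0.32. H1f7, the spermatid linker histone, and the MORC genes Morc1 and Morc2b differed by 10.15 ± 0.31, 6.71 ± 0.76 and 7.06 ± 0.18. In the group of genes that signal damage on unsynapsed chromosomes, 14 of 15 rose, with a median of 3.35. Topbp1, which activates ATR, was at 13.49, 14.02 and 13.21 on the spermatocyte arrays, against 7.41, 7.05 and 7.81 on the liver arrays, a difference of 6.15 ± 0.29. Mdc1, which spreads the phosphorylated H2AX mark over the sex body, was at 11.96, 12.16 and 11.98 on the spermatocyte arrays, against 5.56, 5.18 and 5.36 on the liver arrays, a difference of 6.67 ± 0.21. The kinase gene Atm and the BRCA1 partner Bard1 differed by 2.74 ± 0.44 and 5.17 ± 0.30, and Brca1 itself by 1.73 ± 0.29. Topbp1 and Mdc1 were above background in liver, with every liver array far below the lowest spermatocyte array. The group's member that was not called, the ubiquitin ligase Rnf8, differed by 0.89.

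The cell cycle list held changes in both directions. Of 34 genes on the array, 26 rose and 4 fell, with a median difference of 5.05. Ccna1, the meiotic A-type cyclin, was at 8.09, 8.08 and 7.86 on the spermatocyte arrays, against 4.11, 4.28 and 4.29 on the liver arrays, a difference of 3.79 ± 0.12, and Ccna2, the mitotic one, at 8.88, 8.37 and 7.70 on the spermatocyte arrays, against 2.32, 2.29 and 2.30 on the liver arrays, a difference of 6.01 ± 0.50. Ccne1, an E-type cyclin, was at 10.14, 10.23 and 9.95 on the spermatocyte arrays, against 3.48, 3.94 and 3.96 on the liver arrays. Ccnb2, Ccne2 and the X-linked Ccnb3 differed by 9.71 ± 0.51, 7.60 ± 0.43 and 7.67 ± 0.21. The A-, B- and E-type cyclins named here were therefore all higher in spermatocytes. The genes that fell were the 3 D-type cyclins, which answer to growth signals, and Cdkn1a, which encodes the CDK inhibitor p21. Ccnd3 was at 6.40, 6.55 and 5.67 on the spermatocyte arrays, against 9.02, 8.83 and 8.75 on the liver arrays, a difference of -2.66 ± 0.34, and Ccnd1 and Ccnd2 differed by -1.61 ± 0.29 and -1.68 ± 0.17. Cdkn1a was at 4.45, 4.55 and 5.001 on the spermatocyte arrays, against 10.64, 9.996 and 8.02 on the liver arrays, a difference of -4.88 ± 0.46 with the liver arrays spread.

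Genes whose products act in the sperm were also high. All 18 acrosome and sperm-egg interaction genes on the array rose, with a median log2 difference of 7.21, and all 26 flagellum and motility genes rose, with a median of 6.54. Acr, the acrosomal protease, was at 9.52, 9.78 and 9.16 on the spermatocyte arrays, against 3.48, 3.45 and 2.84 on the liver arrays, a difference of 6.23 ± 0.23. Spaca1, an acrosomal membrane protein, was at 11.18, 11.82 and 10.59 on the spermatocyte arrays, against 2.14, 2.54 and 2.12 on the liver arrays, a difference of 8.93 ± 0.42, and Acrbp and Acrv1 differed by 4.67 ± 0.19 and 8.20 ± 0.32. Akap3, an anchoring protein of the fibrous sheath, was at 12.81, 13.85 and 14.07 on the spermatocyte arrays, against 2.86, 2.81 and 2.84 on the liver arrays, a difference of 10.74 ± 0.29 (limma adjusted p 5.23e-15). Akap4, its X-linked partner, was at 14.08, 14.53 and 14.22 on the spermatocyte arrays, against 3.67, 3.18 and 2.94 on the liver arrays, a difference of 11.01 ± 0.27. The outer dense fibre genes Odf1 and Odf2 differed by 11.34 ± 0.30 and 11.27 ± 0.21. The liver arrays of Akap3 lay just below 3 and those of Akap4 and Acr around it, and no array of the tissues overlapped. Of 12 testis-specific kinases, 10 rose. Tssk2 was at 12.26, 13.04 and 12.91 on the spermatocyte arrays, against 1.95, 2.38 and 1.93 on the liver arrays, a difference of 10.65 ± 0.37, and Tssk1, Tssk3, Tssk4 and Tssk6 differed by 8.13 ± 0.30, 9.04 ± 0.37, 5.02 ± 0.38 and 10.76 ± 0.33. In the acrosome, flagellum and kinase lists the pre-mid arrays were above both mid-late arrays for 3 of 18, 5 of 26 and 4 of 12 genes, and below both for 10, 18 and 6. The part of the spermatid messages described above in these differences was not tested.

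**Figure D2:**
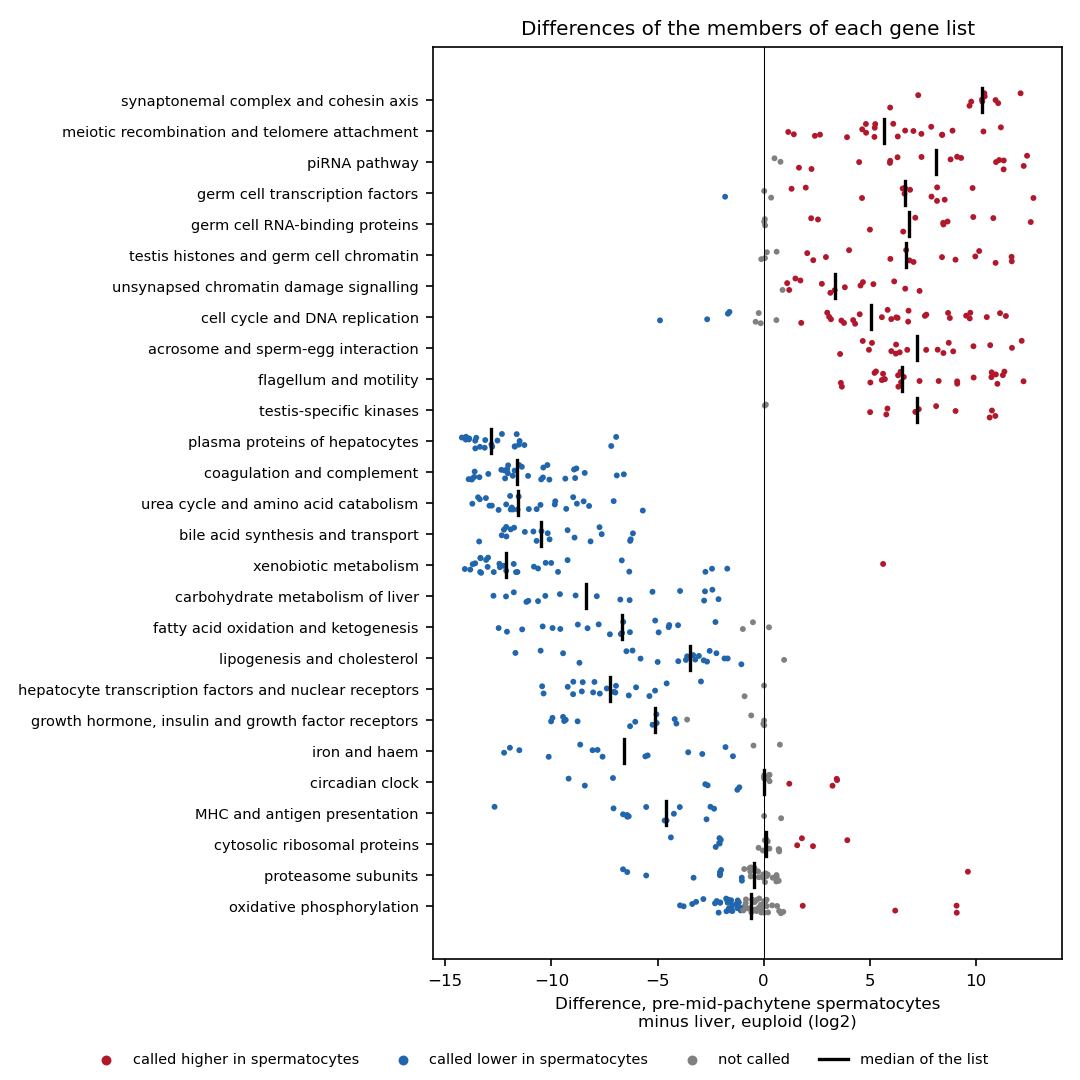
Log2 difference, spermatocytes minus liver, of every member on the array for each gene list, with a point per gene, coloured where called, and a bar at the list's median. The medians of the germ cell lists lie right of 0 and those of the liver function lists left of it, and the ribosomal, proteasome, oxidative phosphorylation and clock lists straddle it.

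Beyond the lists, among genes whose means reached 6 in both tissues, the 12 largest differences in each direction were taken. On the spermatocyte side, after Sycp3, came Rexo5, an RNA exonuclease, at 14.73, 15.08 and 14.70 on the spermatocyte arrays, against 6.64, 6.83 and 6.27 on the liver arrays, a difference of 8.25 ± 0.17. Nek2, a centrosomal kinase, was at 14.27, 14.27 and 13.67 on the spermatocyte arrays, against 6.11, 7.05 and 7.62 on the liver arrays, and Sugp2, a splicing-related protein, at 13.54, 13.65 and 13.88 on the spermatocyte arrays, against 6.95, 6.82 and 6.30 on the liver arrays. Smc4, a condensin subunit, was at 14.14, 14.28 and 14.11 on the spermatocyte arrays, against 7.18, 7.44 and 7.23 on the liver arrays, and Phf7, a reader of histone marks needed in male germ cells, at 13.43, 13.49 and 13.87 on the spermatocyte arrays, against 7.11, 6.98 and 6.78 on the liver arrays. Nek2, Smc4 and Phf7 differed by 7.15 ± 0.45, 6.89 ± 0.25 and 6.64 ± 0.19, and the liver arrays of these genes were in the middle of the intensity range, not at the background. Mis18a, Pfn2, Glt8d1, Chchd6, Spata5 and Arl2bp made up the 12, with differences between 6.27 and 6.9995. On the liver side were Acaa1b, a peroxisomal thiolase, at 6.96, 6.55 and 6.34 on the spermatocyte arrays, against 16.30, 16.11 and 16.18 on the liver arrays, and Bhmt, which remethylates homocysteine, at 8.08, 7.50 and 6.32 on the spermatocyte arrays, against 16.65, 16.52 and 16.63 on the liver arrays. The antioxidant genes Selenop, Cat and Gpx1 were also there. Gpx1, a glutathione peroxidase, was at 7.86, 7.69 and 8.52 on the spermatocyte arrays, against 16.03, 15.98 and 16.08 on the liver arrays, a difference of -8.004 ± 0.23, and Cat, which encodes catalase, at 7.92, 7.05 and 6.70 on the spermatocyte arrays, against 15.53, 15.27 and 15.40 on the liver arrays, a difference of -8.17 ± 0.34. Proc, Rida, Amy1, Aldh2, Mgst1, Pbld2 and Tm7sf2 completed the 12, with differences between -8.88 and -7.77.

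Genes that were high in 1 tissue and at background in the other were put in 2 classes. The spermatocyte class, at 8 or above on all 3 spermatocyte arrays and below 3 on all 3 liver arrays, held 483 genes, or 3.06% of the named genes. The liver class, defined the other way, held 587 genes, or 3.72%. Of the spermatocyte class, 341 genes (70.6%) were at 8 or above on both euploid mid-late arrays and 427 (88.4%) on all euploid spermatid arrays. Relative to pre-mid-pachytene spermatocytes, 340 of the 483 were at least 1 log2 unit higher in spermatids and 80 at least 1 lower, and 100 were lower by that much in mid-late spermatocytes yet higher in spermatids. Of the liver class, 506 genes (86.2%) were below 3 on both mid-late arrays and 496 (84.5%) on all spermatid arrays. Outside the lists, the spermatocyte class genes of lowest p were Pdcl2, Lrr1, Gk2, Spata4, Oscp1, Gm884, Ldhal6b and Fam229b. Gk2, a testis glycerol kinase, was at 13.18, 13.42 and 13.22 on the spermatocyte arrays, against 2.54, 2.75 and 2.52 on the liver arrays, and Pdcl2, a phosducin-like protein, at 13.86, 14.27 and 13.93 on the spermatocyte arrays, against 2.67, 2.50 and 2.52 on the liver arrays. Their counterparts in the liver class were Serpina1c, Rdh7, Cyp2c50, Apof, Azgp1, Akr1c6, Upb1 and the X-linked Rgn. Rgn, a calcium-binding protein, was at 1.997, 1.99 and 2.02 on the spermatocyte arrays, against 15.71, 15.54 and 15.58 on the liver arrays, and Upb1, an enzyme of pyrimidine breakdown, at 2.12, 2.12 and 2.15 on the spermatocyte arrays, against 14.75, 14.62 and 14.67 on the liver arrays. Serpina1c and Cyp2c50 have near-identical paralogues, so their probes may read more than 1 gene.

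**Figure D3:**
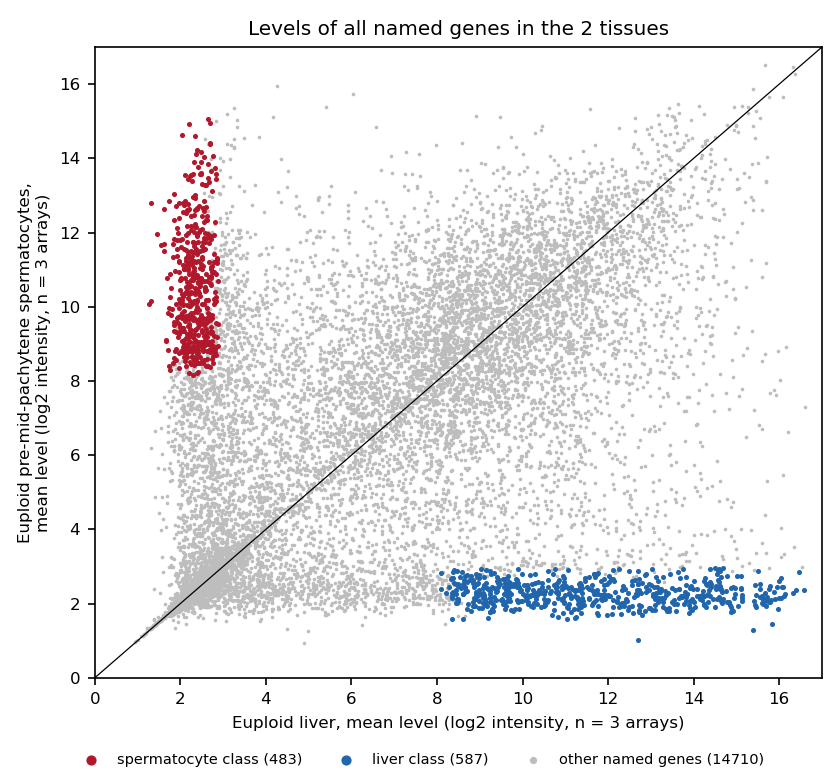
Mean log2 intensity of each of the 15780 named genes in euploid pre-mid-pachytene spermatocytes (vertical axis) against euploid liver (horizontal axis), 3 arrays each. The 483 genes of the spermatocyte class (red) form the column at the upper left and the 587 genes of the liver class (blue) the row at the lower right; the line marks equal levels.

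A small set of 14 spermatocyte class genes was below 3 on every euploid mid-late and spermatid array. It was made up of Tcf19, Cpeb1, Elavl2, Magea5, Stra8, Rbmx2, Ccnb3, Ugt8a, Prss50, Pnma5, Lrr1, Dppa4, Mnd1 and Map7d2. Stra8, the retinoic acid target that starts meiosis, was at 9.46, 8.73 and 8.20 on the spermatocyte arrays, against 2.07, 2.05 and 2.35 on the liver arrays, with means of 2.10 in mid-late spermatocytes and 2.10 in spermatids. Mnd1, a cofactor of DMC1, was at 8.61, 8.62 and 8.05 on the spermatocyte arrays, against 2.32, 2.36 and 2.29 on the liver arrays, with means of 2.37 and 2.35 in those groups. Prss50, a testis protease, was at 12.62, 12.97 and 12.31 on the spermatocyte arrays, against 1.77, 1.55 and 1.56 on the liver arrays, with means of 1.90 and 2.08. All 3 genes were thus high on the pre-mid arrays and in the background range on the other arrays listed. Of the 14 genes, 5 were on the X chromosome.

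The promoters of some of these genes are shown because they hold letters of known binding motifs. The MYB, RFX and HNF4 letters belong to factor families with values given here, and the HNF1 and E2F letters do not. Promoter sequences from RefSeq on GRCm38.p6, from 250 bases before to 50 bases after the annotated start, were available for 395 of the 483 spermatocyte class genes (81.8%) and for 461 of the 587 liver class genes (78.5%). Under 80% of the liver class had one, so a summary over that class is void and is not given. The 4 below were picked after the matches were seen, 2 from each class, and capitals mark the matches named after them. Positions count from the start site.
Stag3: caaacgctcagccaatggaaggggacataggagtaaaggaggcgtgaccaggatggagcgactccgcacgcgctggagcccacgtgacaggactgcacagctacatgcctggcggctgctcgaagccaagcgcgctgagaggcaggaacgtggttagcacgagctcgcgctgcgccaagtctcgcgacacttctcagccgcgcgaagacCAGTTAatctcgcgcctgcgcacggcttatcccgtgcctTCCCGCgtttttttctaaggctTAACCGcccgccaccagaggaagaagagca
Akap3: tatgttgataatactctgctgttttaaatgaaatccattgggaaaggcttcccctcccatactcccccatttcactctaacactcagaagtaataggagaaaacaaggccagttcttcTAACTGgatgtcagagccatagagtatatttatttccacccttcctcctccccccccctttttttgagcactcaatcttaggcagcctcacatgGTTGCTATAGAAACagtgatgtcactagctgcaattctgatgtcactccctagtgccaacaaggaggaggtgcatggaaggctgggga
F13b: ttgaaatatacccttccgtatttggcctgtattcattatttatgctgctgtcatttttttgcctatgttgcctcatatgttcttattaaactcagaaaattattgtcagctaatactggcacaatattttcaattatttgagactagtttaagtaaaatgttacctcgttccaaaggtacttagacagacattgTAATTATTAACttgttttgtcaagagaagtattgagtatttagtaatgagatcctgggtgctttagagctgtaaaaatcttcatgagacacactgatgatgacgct
Cyp8b1: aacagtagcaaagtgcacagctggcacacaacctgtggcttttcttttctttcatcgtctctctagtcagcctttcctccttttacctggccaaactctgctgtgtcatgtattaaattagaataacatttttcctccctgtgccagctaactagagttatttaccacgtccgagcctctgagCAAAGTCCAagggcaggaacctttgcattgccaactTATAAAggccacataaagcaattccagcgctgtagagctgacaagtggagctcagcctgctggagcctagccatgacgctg
The Stag3 promoter (chr5:138280259-138280558, plus strand) has 30 CpG pairs, the MYB letters TAACNG at positions 21 to 26 and, on the other strand, at -41 to -36, and the E2F letters TCCCGC at -2 to 4. The Akap3 promoter (chr6:126852848-126853147, plus strand) has 0 CpG pairs, the RFX letters (GTTGC and GNAAC with NANN between them) at -38 to -25 and the MYB letters at -132 to -127. The F13b promoter (chr1:139501457-139501756, plus strand) has 3 CpG pairs and the HNF1 letters (GTTAAT and ATTA with any base between them) on the other strand at -56 to -46. The Cyp8b1 promoter (chr9:121916256-121916555, minus strand) has 5 CpG pairs, the HNF4 letters CAAAGTCCA at -67 to -59 and a TATA box, TATAAA, at -31 to -26. F13b, a clotting factor subunit, was at 2.20, 2.20 and 2.24 on the spermatocyte arrays, against 14.12, 14.32 and 14.32 on the liver arrays, and Cyp8b1, a bile acid hydroxylase, at 2.05, 2.06 and 2.09 on the spermatocyte arrays, against 13.83, 14.15 and 13.98 on the liver arrays; the values of Stag3 and Akap3 stand with their groups above.

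Over larger sets the letters were counted on both strands of each promoter. Genes called higher had a promoter in 3321 cases, genes called lower in 2855, genes not called in 2068, and the table holds 27025. A ratio of observed to expected CpG pairs of at least 0.6 was found in 70.9% of promoters called higher, 61.8% of those called lower and 83.7% of those not called, and in 45.3% of the spermatocyte class. The share was 36.5% over all promoters in the table, most of them of genes not measured here, and 59.1% over the 12585 named genes of the array that had a promoter (79.8% of them, just under the bound of 80%). The spermatocyte class thus lay above the table's share and below that of the named genes, so its direction rests on the set it is read against. The RFX letters were in 1.77% of the spermatocyte class, 0.994% of promoters called higher and 0.140% of those called lower, against 0.363% of all in the table and 0.405% of the named genes. The MYB letters were in 32.9%, 22.4%, 18.7% and 23.2% of the first 4 of these sets and in 19.8% of the named genes, so that the promoters called higher lay between the last 2 shares, and the CRE letters TGACGTCA in 3.54%, 4.005%, 2.31%, 1.88% and 2.78%. The HNF1 letters were in 0% of the spermatocyte class, 0.0301% of promoters called higher and 0.350% of those called lower, against 0.141% of all in the table and 0.119% of the named genes. These shares describe letters, with no test, and the MYB and HNF1 letters can overlap in one sequence.

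On the liver side, genes of the hepatocyte's secreted products fell together. All 23 plasma protein genes of hepatocytes on the array fell, with a median log2 difference of -12.83, where 23.1% of all named genes were called lower. Alb, the serum albumin gene, was at 2.18, 2.15 and 2.76 on the spermatocyte arrays, against 16.58, 16.65 and 16.52 on the liver arrays, a difference of -14.22 ± 0.24 (limma adjusted p 9.08e-18). Apoa1, the main protein of high-density lipoprotein, was at 2.28, 2.28 and 2.32 on the spermatocyte arrays, against 16.27, 16.34 and 16.34 on the liver arrays. Ttr, the thyroxine carrier, and Trf, the iron carrier, differed by -14.04 ± 0.04 and -12.83 ± 0.14. The spermatocyte arrays of Alb and Apoa1 were all below 3, and every liver array was far above. Rbp4, the retinol carrier, and Apoh, a phospholipid-binding apolipoprotein, also fell but stood above 8 on every spermatocyte array. Rbp4 was at 8.83, 9.23 and 8.32 on the spermatocyte arrays, against 15.98, 16.04 and 15.91 on the liver arrays, a difference of -7.18 ± 0.19, and Apoh at 8.40, 8.94 and 8.82 on the spermatocyte arrays, against 15.71, 15.74 and 15.55 on the liver arrays, a difference of -6.95 ± 0.69.

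All 30 coagulation and complement genes on the array fell, with a median of -11.63. The fibrinogen chains Fga, Fgb and Fgg differed by -13.90 ± 0.05, -13.39 ± 0.26 and -13.64 ± 0.54, and F2, which encodes prothrombin, by -13.62 ± 0.06. F5 and F7 differed by -8.43 ± 0.19 and -10.19 ± 0.16. All 26 genes of the urea cycle and amino acid breakdown fell, with a median of -11.57. Arg1, which releases urea, was at 2.03, 2.03 and 2.06 on the spermatocyte arrays, against 15.85, 15.72 and 15.72 on the liver arrays, and the X-linked Otc, which makes citrulline, at 2.52, 2.50 and 2.59 on the spermatocyte arrays, against 14.67, 14.27 and 14.28 on the liver arrays. Asl, the argininosuccinate lyase gene, was at 4.65, 4.82 and 4.80 on the spermatocyte arrays, against 14.73, 14.74 and 14.32 on the liver arrays, a difference of -9.84 ± 0.28. Glud1, the glutamate dehydrogenase gene, was at 9.53, 9.72 and 8.60 on the spermatocyte arrays, against 14.98, 14.99 and 14.96 on the liver arrays, a difference of -5.69 ± 0.23. Arg1 and Otc were thus at background in spermatocytes, Asl was weakly above it and Glud1 was clearly measured in both tissues.

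Bile acid and xenobiotic genes followed. All 21 bile acid genes fell, with a median of -10.47. Cyp7a1, the rate-limiting enzyme of bile acid synthesis, was at 2.33, 2.33 and 2.38 on the spermatocyte arrays, against 10.61, 10.41 and 10.49 on the liver arrays, a difference of -8.16 ± 0.19, and Cyp27a1, of the acidic pathway, differed by -12.24 ± 0.20. Cyp8b1 differed by -11.92 ± 0.17 (limma adjusted p 7.04e-19). Of 31 xenobiotic genes, 30 fell and 1 rose, with a median of -12.13. Cyp1a2, an inducible drug-oxidising enzyme, was at 1.99, 1.97 and 2.02 on the spermatocyte arrays, against 14.22, 13.42 and 13.67 on the liver arrays, a difference of -11.78 ± 0.13, and Cyp2c29, Cyp2c37, Cyp2c70, Cyp2d9 and Cyp2d10, which belong to families of close paralogues, differed by -13.34 ± 0.34, -12.24 ± 0.07, -13.07 ± 0.05, -13.36 ± 0.16 and -13.004 ± 0.06. The gene that rose was Gstm5, a glutathione transferase found in testis and brain. It was at 15.12, 15.20 and 14.98 on the spermatocyte arrays, against 9.77, 9.16 and 9.49 on the liver arrays, a difference of 5.63 ± 0.15 (limma adjusted p 4.33e-15). Gstm1, its relative in the liver, was at 8.79, 8.57 and 8.37 on the spermatocyte arrays, against 14.80, 15.14 and 14.78 on the liver arrays, a difference of -6.33 ± 0.82, so the glutathione transferases of the mu class moved in opposite directions.

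All 18 genes of liver carbohydrate metabolism fell, with a median of -8.36. G6pc, which releases glucose from the liver, was at 1.81, 1.80 and 1.83 on the spermatocyte arrays, against 13.72, 13.78 and 13.25 on the liver arrays, and Pck1, the gateway enzyme of gluconeogenesis, differed by -11.18 ± 0.16. Fbp1, fructose bisphosphatase, was at 12.47, 13.04 and 12.35 on the spermatocyte arrays, against 15.27, 15.47 and 15.42 on the liver arrays, a difference of -2.76 ± 0.15, and was therefore strongly measured in both tissues. Of 23 fatty acid oxidation genes, 20 fell, with a median of -6.67. Cpt1a, the entry step into mitochondria, was at 4.96, 4.69 and 4.90 on the spermatocyte arrays, against 11.12, 11.17 and 11.15 on the liver arrays, and Acadm, a medium-chain dehydrogenase, at 7.35, 7.07 and 7.19 on the spermatocyte arrays, against 13.67, 13.91 and 13.88 on the liver arrays. Cpt1a and Acadm differed by -6.30 ± 0.09 and -6.62 ± 0.16. Cpt2, the next step after Cpt1a, was at 12.18, 12.35 and 12.44 on the spermatocyte arrays, against 13.08, 13.42 and 13.39 on the liver arrays and was not called, with a difference of -0.98 ± 0.13. It passed as lower with each array centred on its autosomal median, at -1.36, and without liver replicate 1 or spermatocyte replicate 3, at -1.09 and -1.04. Of 22 genes of lipogenesis and cholesterol, 21 fell, with a median of -3.46. Fasn, the fatty acid synthase gene, was at 9.81, 9.69 and 10.01 on the spermatocyte arrays, against 13.12, 12.40 and 11.62 on the liver arrays, a difference of -2.54 ± 0.38, and Scd1, a desaturase, at 2.38, 2.36 and 2.41 on the spermatocyte arrays, against 14.80, 13.74 and 13.70 on the liver arrays, a difference of -11.70 ± 0.19. Dgat1, a triglyceride synthase, was not called, at 0.96, and passed as higher with quantile normalization and without liver replicate 2 or 3 or spermatocyte replicate 1.

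The regulators of the hepatocyte fell with its products. Of 22 hepatocyte transcription factors and nuclear receptors on the array, 20 fell, with a median of -7.22, and Prox1 and Thrb were not called. Hnf4a was at 2.34, 2.34 and 2.38 on the spermatocyte arrays, against 10.75, 10.08 and 10.34 on the liver arrays, a difference of -8.03 ± 0.13. Foxa1, Foxa2 and Foxa3 differed by -8.52 ± 0.24, -7.97 ± 0.28 and -9.23 ± 0.44. Onecut1, also known as HNF6, was at 1.68, 1.66 and 1.70 on the spermatocyte arrays, against 6.38, 9.38 and 10.24 on the liver arrays, with 1 liver array well below the other 2. In the growth hormone and insulin list 13 of 18 fell. Ghr, the growth hormone receptor gene, was at 2.14, 2.14 and 2.17 on the spermatocyte arrays, against 11.65, 11.51 and 11.49 on the liver arrays, and Igf1, its secreted target, at 3.33, 3.23 and 3.44 on the spermatocyte arrays, against 13.28, 13.34 and 13.42 on the liver arrays. Both were near or below 3 in spermatocytes on every array, with differences of -9.40 ± 0.05 and -10.01 ± 0.14. Cish, a growth hormone target, was at 4.62, 4.80 and 4.66 on the spermatocyte arrays, against 3.91, 9.98 and 10.997 on the liver arrays, with 1 liver array below all 3 spermatocyte arrays; its difference of -3.61 was not called (limma adjusted p 0.0502). It passed without liver replicate 1, at -5.80, and with quantile normalization, at -3.98. Of 16 iron and haem genes 14 fell, among them Hamp, which encodes the iron hormone hepcidin, at 2.37, 2.38 and 2.40 on the spermatocyte arrays, against 14.70, 14.64 and 14.49 on the liver arrays, and Tfr2, an iron sensor, with a difference of -7.59 ± 0.18.

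Whole liver also holds cells other than hepatocytes, and a sort of testis can carry other cells of the tubule, so marker genes of both were read. Beside the counts below, 26.1% of all named genes were called higher and 23.1% lower. Of 6 Kupffer cell markers 5 fell, with list medians on the arrays of 2.43 to 2.50 in spermatocytes and 7.43 to 8.49 in liver, and Marco was not called. Of 5 liver endothelial markers 4 fell, with 2.52 to 2.59 in spermatocytes and 9.13 to 9.93 in liver, and Pecam1 was not called. Of 7 stellate and fibroblast markers 5 fell, with 2.81 to 2.95 in spermatocytes and 8.58 to 9.53 in liver, and Des and Col1a1 were not called. The cholangiocyte and lymphocyte markers were mixed. Of 4 cholangiocyte markers Krt19 and Sox9 fell, Krt7 was not called and Epcam rose by 6.62 ± 0.39. Of 3 lymphocyte markers Ptprc fell, Cd4 was not called and Cd3e rose by 2.43 ± 0.36. Of 2 red blood cell markers Alas2 fell and Slc4a1 was not called. The part of these cells in the liver differences was not tested, and the hepatocyte markers had list medians of 2.21 to 2.35 in spermatocytes and 16.11 to 16.23 in liver.

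Markers of the somatic cells of the testis were mixed as well. Their counts stand beside the same shares of all named genes, 26.1% higher and 23.1% lower. They are not read as a result about these cells. Of 8 Sertoli cell markers 3 rose, 2 fell and 3 were not called, with a median difference of 0.03, and list medians on the arrays were 4.03 to 4.25 in spermatocytes and 2.56 to 2.90 in liver. Those that rose were Wt1, Cldn11 and Aard. Cldn11, a Sertoli tight-junction gene, was at 6.48, 6.87 and 6.98 on the spermatocyte arrays, against 2.53, 1.29 and 1.29 on the liver arrays, and Aard, a testis protein, at 11.81, 12.24 and 12.18 on the spermatocyte arrays, against 6.62, 6.01 and 4.90 on the liver arrays. Clu, a secreted chaperone that hepatocytes also make, was at 13.14, 13.69 and 13.22 on the spermatocyte arrays, against 15.74, 15.59 and 15.72 on the liver arrays and fell, as did Sox9, while Amh, Fshr and Gata4 were below 3 on all spermatocyte arrays. Of 4 Leydig cell markers none was called, and Star, Cyp11a1 and Hsd3b1 were below 3 on all arrays of both tissues. Cyp17a1, the other Leydig marker, was at 6.97, 4.62 and 3.65 on the spermatocyte arrays, against 7.21, 10.31 and 6.87 on the liver arrays, a difference of -3.05 ± 1.44 with overlapping arrays. The part of Sertoli and Leydig cells in the spermatocyte values was not tested.

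Of the antigen presentation list, 14 of 16 genes fell, with a median of -4.62. B2m, the light chain of class I molecules, was at 8.70, 9.10 and 7.80 on the spermatocyte arrays, against 15.65, 15.59 and 15.59 on the liver arrays, and H2-K1, a heavy chain, at 10.53, 11.02 and 10.28 on the spermatocyte arrays, against 14.59, 14.70 and 14.39 on the liver arrays, with differences of -7.07 ± 0.29 and -3.95 ± 0.17.

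Machinery that both tissues need gave smaller differences. The counts below stand beside 26.1% of all named genes called higher and 23.1% called lower. Among the genes described here those shares were 40.2% and 34.8%. The ribosomal and clock counts in both directions are not far from these shares. The same holds for the proteasome and oxidative phosphorylation counts of lower genes. None of these counts is read as a trait of its list. Over 19 cytosolic ribosomal protein genes, 4 rose and 6 fell, with a median of 0.13 that became -0.25 when arrays were centred on their autosomal medians. Rpl26 was at 15.15, 15.10 and 15.28 on the spermatocyte arrays, against 13.66, 13.64 and 12.82 on the liver arrays, a difference of 1.80 ± 0.19, and Rpl23 at 4.85, 4.78 and 5.74 on the spermatocyte arrays, against 9.52, 9.51 and 9.45 on the liver arrays, a difference of -4.37 ± 0.26. Rps15a and Rplp2 also rose, by 3.94 ± 0.35 and 1.58 ± 0.18, and with quantile normalization 8 ribosomal genes were called higher. Pseudogene copies are common for ribosomal proteins, so these probe sets may read more than 1 locus. Over 34 proteasome subunits, 1 rose and 10 fell, with a median of -0.43, and quantile normalization called 6 higher. Over 71 oxidative phosphorylation genes, 4 rose and 28 fell, with a median of -0.58 that became 0.03 under quantile normalization, which called 8 higher and 15 lower. The 4 that rose were Cox6b2, Cox7a2, Cox7b2 and Cox8c; Cox6b2, Cox7b2 and Cox8c are known as testis forms of cytochrome oxidase subunits. Of 18 clock genes, 4 rose and 7 fell, with a median of 0.03 that became -0.35 with centred arrays, and the labels give no time of day. Arntl, the activator known as BMAL1, was at 5.62, 6.03 and 5.16 on the spermatocyte arrays, against 8.36, 8.46 and 8.24 on the liver arrays, a difference of -2.75 ± 0.25. Nr1d2, a repressor of the clock loop, was at 11.43, 11.57 and 10.82 on the spermatocyte arrays, against 8.02, 8.12 and 7.94 on the liver arrays, a difference of 3.24 ± 0.40. Cry1, Ciart and Usp2 rose as well, Cry1 by 1.21 ± 0.22, which was 0.829 with centred arrays, whereas Cry2 fell, with a difference of -2.64 ± 0.31.

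Several broadly expressed genes have a germ cell relative that does the same work in the testis. Of 32 listed pairs, 16 had both genes on the array. The germ cell form rose in all 16, and in 7 it was below 3 on all liver arrays. The broad form fell in 10, rose in 3 and was not called in 3. Over all named genes, 26.1% were called higher and 23.1% lower. The pairs were listed for their germ cell form and with earlier results of these data known. The shared rise of the germ cell forms is therefore no independent result. Pdha2, the testis form of a pyruvate dehydrogenase subunit, was at 12.45, 13.24 and 12.10 on the spermatocyte arrays, against 2.10, 2.16 and 2.26 on the liver arrays, while its X-linked relative Pdha1 was at 3.04, 2.49 and 3.75 on the spermatocyte arrays, against 10.44, 10.36 and 10.73 on the liver arrays. The differences were 10.42 ± 0.23 and -7.42 ± 0.22, so the pair ran in opposite directions with no overlap of arrays. Cyct, the testis cytochrome c, differed by 11.08 ± 0.27, and Cycs, the somatic one, by -1.26 ± 0.13. Cycs was at 2.79, 2.76 and 2.79 on the spermatocyte arrays, against 4.03, 4.07 and 4.04 on the liver arrays. Its difference is thus a gap between low values near the background. Slc25a31, a testis ADP/ATP carrier, was at 13.90, 14.26 and 13.57 on the spermatocyte arrays, against 2.36, 2.33 and 2.31 on the liver arrays, and Slc25a5, an X-linked carrier, at 9.41, 9.44 and 8.85 on the spermatocyte arrays, against 14.55, 14.35 and 14.39 on the liver arrays, a difference of -5.20 ± 0.70. Slc2a3, a glucose transporter of germ cells and neurons, was at 12.81, 12.52 and 13.17 on the spermatocyte arrays, against 4.41, 3.76 and 4.91 on the liver arrays, and Slc2a1, the broad transporter, at 6.86, 6.33 and 6.77 on the spermatocyte arrays, against 8.72, 8.64 and 8.99 on the liver arrays, a difference of -2.13 ± 0.16. In these pairs of energy metabolism the germ cell form was high in spermatocytes and the broad form lower there than in liver, for Cycs with low values in both tissues.

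Among pairs of chromosome and protein handling, the cohesin and proteasome pairs below also had a broad form that fell. Smc1b rose as given above, and the X-linked Smc1a was at 5.79, 5.21 and 5.32 on the spermatocyte arrays, against 9.27, 9.06 and 9.21 on the liver arrays, a difference of -3.74 ± 0.25. Stag2, the X-linked relative of Stag3, was at 6.67, 7.10 and 6.52 on the spermatocyte arrays, against 9.46, 9.53 and 9.84 on the liver arrays, a difference of -2.85 ± 0.31. Psma8, a subunit of the testis proteasome, was at 13.91, 14.24 and 13.82 on the spermatocyte arrays, against 5.54, 5.14 and 2.42 on the liver arrays, and Psma7, the subunit it replaces, at 8.29, 8.28 and 7.90 on the spermatocyte arrays, against 11.39, 11.61 and 11.39 on the liver arrays, with differences of 9.62 ± 0.55 and -3.30 ± 0.21. Smc1a, Stag2 and Psma7 were all still above background in spermatocytes. Hspa2, a testis heat shock protein, was at 13.16, 13.31 and 13.25 on the spermatocyte arrays, against 5.68, 3.82 and 3.95 on the liver arrays, a difference of 8.76 ± 0.37, and the broad Hspa8 was at 16.26, 16.26 and 16.27 on the spermatocyte arrays, against 16.57, 16.25 and 16.29 on the liver arrays and not called (limma adjusted p 0.589). These Hspa8 values are close to the highest in the data, 16.7547, where a difference may not show. The broad forms that rose were Cstf2, Taf7 and Ccna2, and those not called besides Hspa8 were Cetn2 and Utp14a. Of the 8 broad forms on the X chromosome, 5 fell and 1 rose. Over all X-linked genes in the comparison, 40.6% were lower and 42.6% higher. The broad forms that fell also included the autosomal Cycs, Cox6b1, Cox8a, Psma7 and Slc2a1. Cox8a was in the background range on the spermatocyte arrays, at 0.96, 0.95 and 0.95, against 5.75, 4.51 and 4.40 on the liver arrays. The part of X linkage in the fall of the broad forms was not tested.

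**Figure D4:**
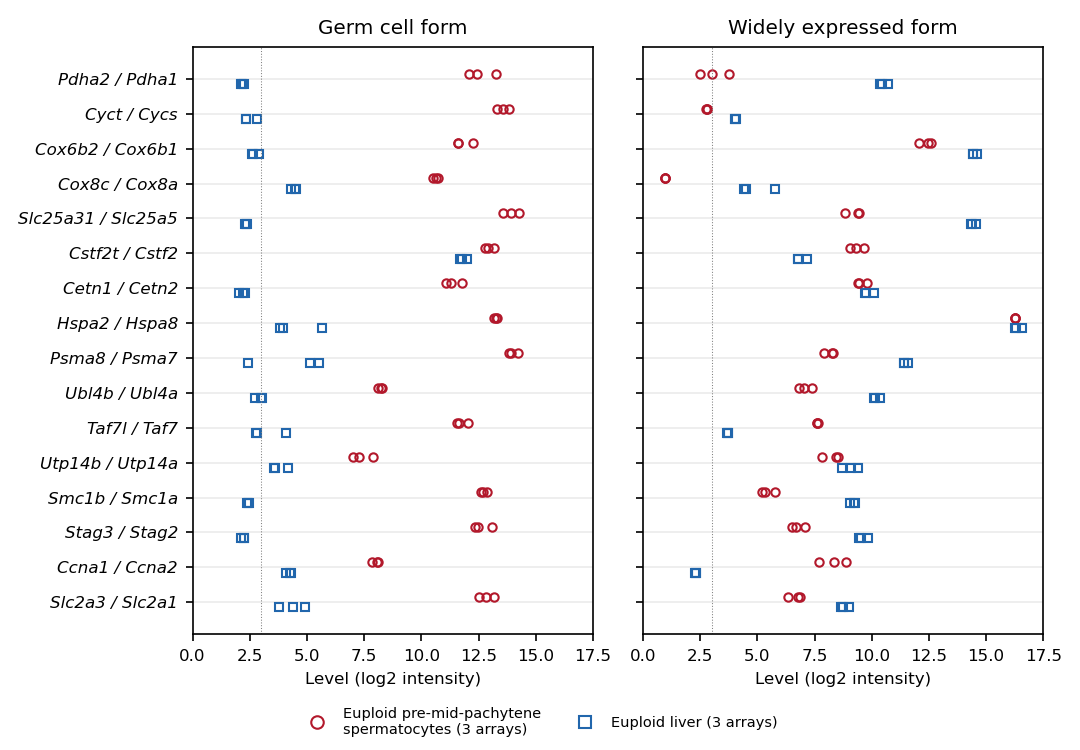
Log2 intensity on each of the 6 arrays for the germ cell form (left panel) and the broad form (right panel) of the 16 pairs, with circles for spermatocyte arrays above squares for liver arrays and the dotted line at the background bound of 3. In the left panel the spermatocyte arrays of every pair lie right of the liver arrays, and in the right panel they lie left of them for the 10 broad forms that fell.

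On the X chromosome 303 of 542 named genes were in the comparison, and 129 (42.6%) were higher and 123 (40.6%) lower, against 40.1% higher and 34.7% lower among 9734 autosomal genes. The median difference was 0.22 on the X and 0.26 on autosomes. The spermatocyte class took 25 X-linked genes, or 46.1 per 1000, against 456 autosomal genes, or 30.0 per 1000. The liver class took 9 X-linked genes, or 16.6 per 1000, against 577 autosomal genes, or 37.95 per 1000. Among X-linked genes at 6 or above in both tissues, Acot9, Pbdc1, Slc25a14, Rps24-ps3 and Cstf2 had the largest higher differences, between 2.44 and 3.11, and Rps24-ps3 is named as a pseudogene. Hsd17b10, a mitochondrial dehydrogenase, Slc25a5, Rnf128, Gpc4 and Mcts1 had the largest lower ones, between -6.48 and -4.91. Hsd17b10 was at 7.22, 6.33 and 6.59 on the spermatocyte arrays, against 13.25, 13.45 and 12.88 on the liver arrays, with no overlap of arrays.

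Most X-linked genes of the spermatocyte class read low in the next stage. Over the 25 X-linked genes of the spermatocyte class, the median of group means was 10.05 in the pre-mid cells, 3.48 in the mid-late cells and 8.38 in spermatids. Over the 456 autosomal genes of the class it was 10.26, 10.82 and 12.71 in the same order. In mid-late spermatocytes 7 of the 25 X-linked genes had a mean below 3 and 2 a mean of 8 or above, against 11 and 372 of the 456. Scml2, a germ cell polycomb-group protein, averaged 11.24 ± 0.49 (SD, n = 3) in pre-mid spermatocytes and 2.83 ± 0.06 (SD, n = 3) in liver, and 3.03 in mid-late spermatocytes (n = 2). Tktl1, a transketolase-like enzyme, averaged 11.49 ± 0.26 (SD, n = 3) in pre-mid spermatocytes and 2.47 ± 0.03 (SD, n = 3) in liver, and 2.81 in mid-late spermatocytes (n = 2). Cypt3, of the perinuclear theca family, went against this, with 12.55 ± 0.22 (SD, n = 3) in pre-mid spermatocytes and 2.07 ± 0.19 (SD, n = 3) in liver, and means of 9.94 in mid-late spermatocytes and 13.89 in spermatids. These stage values are a description of genes selected on the pre-mid arrays, with no test. The pre-mid arrays also carried the spermatid messages described above. Their part in these stage values, and in the X-linked share of the spermatocyte class, was not tested.

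**Figure D5:**
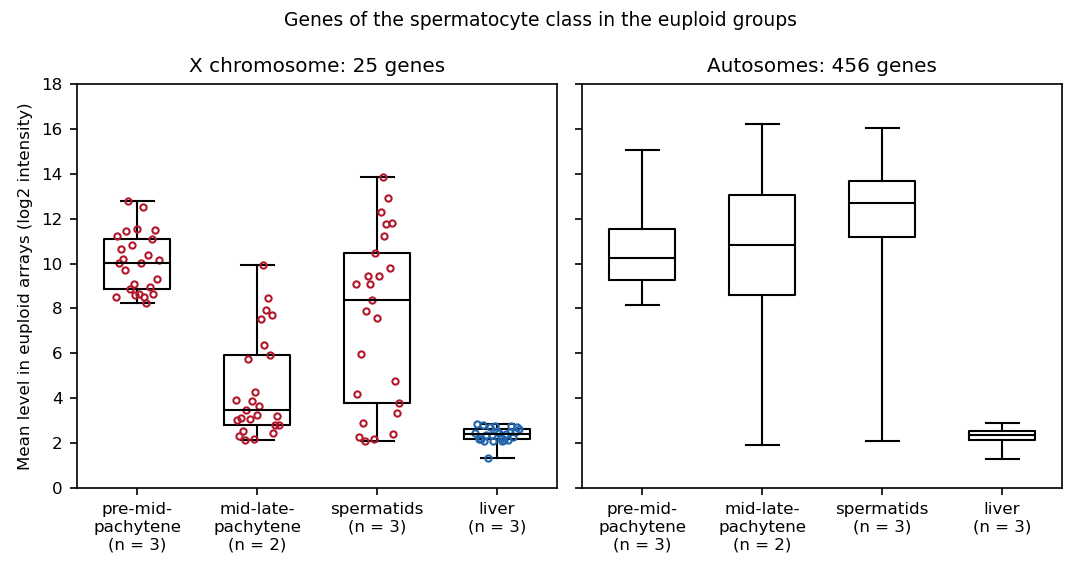
Mean log2 intensity of the spermatocyte class genes in the euploid groups, for 25 X-linked genes (left panel, a point per gene) and 456 autosomal genes (right panel). Boxes give the median and the quartiles and whiskers the full range; the X-linked median is 3.48 in mid-late-pachytene spermatocytes, where the autosomal median is 10.82.

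Liver class genes were often neighbours on the chromosome. In the gene order of GRCm38.p6, 142 of the 586 placed liver class genes (24.2%) stood next to another gene of the class, whereas 7.07% of all 15752 placed genes had a liver class gene as neighbour. For the spermatocyte class these shares were 9.34% (45 of 482) and 6.01%. The longest run was 6 liver class genes on chromosome 10, the retinol and steroid dehydrogenases Rdh9, Rdh16, Rdh16f2, Rdh7, Sdr9c7 and Hsd17b6. The 5 runs of 4 genes held a Cyp2c cluster, the apolipoproteins Apoa1, Apoc3, Apoa4 and Apoa5, the fibrinogen genes with Lrat, and both a Ugt2b cluster and a cluster of Ugt2 and sulfotransferase genes. Several of these runs hold paralogues, such as the Cyp2c and Ugt2b genes, whose probes may share signal; others hold unrelated genes, such as Lrat beside the fibrinogens.

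The trisomic arrays of the same tissues gave the same direction for most calls. Their means do not enter the euploid differences, but both contrasts share the fit's spread per gene; over all named genes 27% were called higher and 22.4% lower there. Of the 4040 genes higher in euploid spermatocytes, 3815 (94.4%) were called higher in trisomic spermatocytes against trisomic liver, which is 89.6% of the 4260 genes called there. Of the 3502 lower genes, 3201 (91.4%) were called lower, or 90.5% of 3538. In the first set 1 gene, and in the second 0 genes, were called the other way. A test of the difference between the genotypes (limma interaction) passed an adjusted p of 0.05 for 724 of the 15780 named genes, or 4.59%. In the class genes, 426 of the spermatocyte class (88.2%) were at 8 or above on all trisomic pre-mid arrays and 396 (82.0%) below 3 on all trisomic liver arrays. Of the liver class, 565 (96.3%) were below 3 on all trisomic pre-mid arrays and 556 (94.7%) at 8 or above on all trisomic liver arrays.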

How the data were processed

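Expression was measured on 22 Affymetrix arrays in 8 groups of 2 or 3. The deposited table holds log2 intensities, 1 value per probe set and array, which the authors made with GCRMA, per the submitters' processing notes (version not given in the sources used here). The values ran between 0.9001 and 16.7547. The number of arrays limits the precision. Further limits come from the background range and from probe sets that may read more than 1 gene. Of 16539 probe sets, 15780 were named through GEO's platform annotation. Each of these was counted as 1 gene, and none was dropped.

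The 8 group means were fitted to the log2 values with limma 3.58.1 in R 4.3.3 (lmFit and eBayes, 14 residual degrees of freedom, tested on simulated data first). Tests were two-sided, and p-values were adjusted by Benjamini-Hochberg over the 15780 genes. A call needed an adjusted p under 0.05 and a log2 difference of at least 1, which is 2-fold. An exact permutation test of 3 arrays against 3 cannot go below 0.1.

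The genes, lists and pairs were chosen with earlier results of these data known. Named genes were the 12 largest differences each way among genes at 6 or above in both tissues, the first 6 called members of each list and any called against its majority, 5 X-linked genes each way and 8 genes per class by p; others, including those not called, were named after their values were seen. Replicate numbers gave no pairing: deviations of same-numbered arrays correlated at -0.0536, -0.0202 and -0.0379. List members that are not on the array were not analysed here.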

Additional observations from a re-analysis of the deposited data

Results flagged for a closer look

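For 20 of the 264 genes named in the text, the difference between spermatocytes and liver was not the same in trisomic and euploid arrays. The bound was an adjusted p under 0.05 over all named genes (limma interaction). Over all 15780 named genes on the array, 724 passed the same bound, or 4.59%. Values below are the trisomic difference minus the euploid one, in log2 units, with 3 arrays in each of the groups.

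Among germ cell genes it was 1.14 for Sycp3 and -3.22 for Syce2, and the liver arrays of Syce2 were those with the wide spread. It was -3.48 for Tcf19, -1.25 for Elavl2 and -0.72 for Pnma5, which were all high on the pre-mid arrays and at background later. It was 1.85 for Slc2a3, 0.58 for Cox7b2 and 0.85 for Pfn2.

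Among genes lower in spermatocytes it was -2.83 for Ccnd1, whose difference was -4.44 in trisomic and -1.61 in euploid arrays. Bhmt had -3.43, with spermatocyte means of 3.83 in trisomic and 7.30 in euploid arrays. Cyp7a1 had 1.38, H2-K1 0.91, Trf -0.84, Alas2 1.56 and Gfra1 2.02, the last with liver means of 5.86 in trisomic and 7.87 in euploid arrays. In the dehydrogenase run on chromosome 10, Rdh16 had -1.34, Rdh9 -0.97 and Sdr9c7 2.44. Apof and Cyp2c50 passed with small values of 0.22 and -0.28. No gene of the 20 had opposite signs in the genotypes.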

How the results depend on the processing

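The counts of 4040 higher and 3502 lower genes stayed within 1.5 times their values under all alternatives run. They were 3955 and 3425 with only the 6 arrays of the comparison, 4082 and 3565 with quantile normalization, 3579 and 3099 with a minimum mean of 6, and 3432 and 3000 with a treat test against a 2-fold bound. Leaving out each array in turn gave 3971 to 4060 higher and 3439 to 3533 lower genes. With the replicate number as a block they were 4035 and 3500, and the block changed no call named here; the numbers are shared labels only. Centring each array on its autosomal median shifted the median of all genes to -0.34, against 0.03, and gave 3585 higher and 3964 lower genes, so that 47.5% of the calls were higher in place of 53.6%. The spermatocyte and liver classes grew to 1197 and 1048 genes with bounds of 6 and 4. Quantile normalization called 8 ribosomal, 6 proteasome and 8 oxidative phosphorylation genes higher, 15 oxidative phosphorylation genes lower, and 1 lipogenesis gene higher. That lipogenesis count was 0 to 1 on leaving out single arrays. The cause of these changes was not tested. Of 3644 combinations of a named gene and an alternative, 5 lost a call and 31 gained one; no called value changed sign.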

Other observations

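A further 759 probe sets carry no gene symbol here. Of these, 440 had a mean of at least 4 in either tissue, and by the same rule 154 were higher and 171 lower in spermatocytes, together 73.9% of the 440, against 75% of the named genes at that level. Of the 4040 genes higher in spermatocytes, 3647 were at 4 or above in euploid mid-late-pachytene spermatocytes and 3666 in euploid spermatids. A smaller set of 120 was below 4 in the mid-late cells and at 4 or above in spermatids, and 273 were below 4 in both.

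Single markers of other cells stood above background on the spermatocyte arrays, while other members of their lists did not. Epcam, an epithelial adhesion protein, was at 12.14, 11.96 and 11.56 on the spermatocyte arrays, against 4.72, 5.79 and 5.27 on the liver arrays, while Krt19 and Krt7 of the same list were below 3 on the spermatocyte arrays. Stab2, a scavenger receptor of liver sinusoids, was at 8.21, 8.27 and 8.40 on the spermatocyte arrays, against 9.72, 9.89 and 9.93 on the liver arrays, while Kdr, Lyve1 and Pecam1 of its list were below 3 on the spermatocyte arrays. Pecam1 was also at 1.90, 1.87 and 1.88 on the liver arrays, so its low values do not tell the tissues apart. Uchl1, a ubiquitin hydrolase of spermatogonia, was at 8.74, 7.84 and 7.90 on the spermatocyte arrays, against 2.24, 2.16 and 2.17 on the liver arrays. Of the 6 spermatogonium markers 4 rose and 2 fell, where 26.1% of all named genes were called higher and 23.1% lower. The markers that fell, Gfra1 and Zbtb16, were below 3 on the spermatocyte arrays. Zbtb16 was not called with only the 6 arrays of the comparison, at -2.75. These genes were named after their values were seen, and their source in the sorted cells was not tested.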
